A study of Homo sapiens with 4 samples.

Results

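The zinc finger gene clusters of human chromosome 19 were examined for binding of TEAD4, from ChIP-seq peak lists of the gastric cancer cell lines MKN28 and SNU216. The members were all TEAD4 peaks with a midpoint in 1 of 4 intervals of hg19 that hold KRAB zinc finger genes. These intervals were 19.8 to 24.4 Mb (nearly all in 19p12, called the 19p12 cluster), 36.7 to 38.3 Mb (19q13.12), 52.4 to 54 Mb (19q13.41 to 19q13.42) and 56.7 to 59 Mb (19q13.43). Of 51017 peaks in both lists, 229 were members, 205 of the 39477 MKN28 peaks and 24 of the 11540 SNU216 peaks. The labels name no treatment or genetic change for either line. Each line gave 1 library made with an antibody against TEAD4 and 1 input library without antibody, and the authors called peaks against the input of the same line. With a single TEAD4 library per line, differences between MKN28 and SNU216 cannot be set against replicates, and no p-value is given. Sequencing depth is unknown, because the lists hold positions and scores but no read counts.

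TEAD4 is a DNA-binding protein of the TEAD family, which recruits YAP and TAZ, the co-activators held back by the Hippo pathway, and binds mostly at enhancers. KRAB zinc finger proteins form a large family of DNA-binding repressors, many of which silence transposable elements through the co-repressor TRIM28 (KAP1). Their genes arose by tandem duplication and sit side by side in clusters, which in many cell types carry heterochromatin marks such as H3K9me3. Of 477 protein-coding genes named ZNF plus a number in RefSeq (GRCh38.p14), 240 (50.3%) are on chromosome 19. No gene annotation or genome sequence of hg19 was used, so the gene content of the intervals was not checked, no peak was assigned to a gene, and no sequence is printed.

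Both lines had fewer TEAD4 peaks per Mb in the 4 zinc finger clusters than in the rest of chromosome 19. The rest was not checked for zinc finger genes and may hold other clusters of them. MKN28 had 205 peaks in the 10.1 Mb of the clusters, or 20.3 per Mb (95% Poisson interval 17.6 to 23.3). The rest of the chromosome, 44.8 Mb outside the centromere bands, held 1319 MKN28 peaks, or 29.4 per Mb (27.9 to 31.1). SNU216 had 24 cluster peaks, or 2.38 per Mb (1.52 to 3.54), and 310 peaks in the rest, or 6.92 per Mb (6.17 to 7.73). The clusters thus held peaks at 0.690 times the density of the rest in MKN28 (0.593 to 0.800) and at 0.344 times in SNU216 (0.217 to 0.521). These intervals treat neighbouring peaks as independent and cover counting error only. All bases of a cluster were counted in its length, whether or not reads can be placed there uniquely.

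Chromosome 19 as a whole was rich in TEAD4 peaks, so the position of the clusters depended on what they were set against. Over the other autosomes, X and chromosome 19 outside the clusters and centromere bands, MKN28 had 13.4 peaks per Mb and SNU216 3.90. All other bases were counted in this length, whether or not reads can be placed there, so the level may be too low. Against this level, a comparison added after seeing the data, the clusters were denser in MKN28, by 1.52 times (1.32 to 1.74), and sparser in SNU216, at 0.609 times (0.390 to 0.906). The rest of chromosome 19 was above the genome level in both lists, by 2.20 times in MKN28 and 1.77 times in SNU216.

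**Figure D1:**
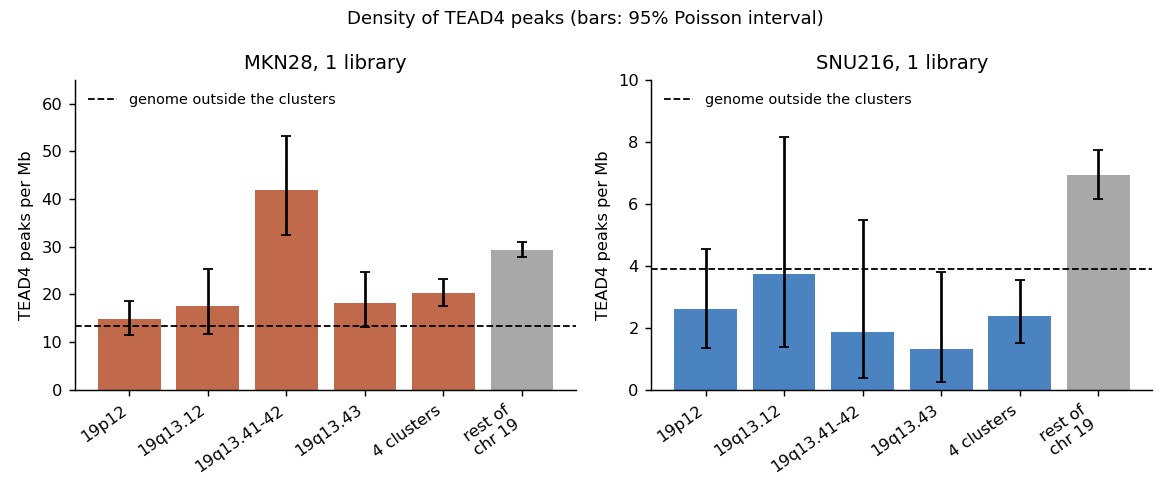
TEAD4 peaks per Mb in each of the 4 zinc finger clusters, in all 4 together and in the rest of chromosome 19, for MKN28 (left) and SNU216 (right, with its own axis range); error bars are 95% Poisson intervals and the dashed line is the genome outside the clusters. In MKN28 only the cluster at 19q13.41 to 19q13.42 (41.9 per Mb) stands above the rest of the chromosome (29.4), while in SNU216 every cluster lies below the rest (6.92).

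The 4 clusters were not alike in MKN28. The 19p12 cluster held 68 peaks (14.8 per Mb), the 19q13.12 cluster 28 (17.5 per Mb) and the 19q13.43 cluster 42 (18.3 per Mb). All 3 were below the rest of the chromosome, with density ratios of 0.502 (0.388 to 0.641), 0.595 (0.394 to 0.864) and 0.621 (0.445 to 0.844). The cluster at 19q13.41 to 19q13.42 held 67 peaks in 1.6 Mb, or 41.9 per Mb (32.5 to 53.2), which was 1.42 times the rest (1.10 to 1.82). It was 2.83 times as dense as 19p12 (1.99 to 4.03), 2.39 times as dense as 19q13.12 (1.52 to 3.86) and 2.29 times as dense as 19q13.43 (1.54 to 3.46). These comparisons took the densest of the 4 clusters with its density known, and their intervals make no allowance for that choice. Without 19q13.41 to 19q13.42, the other clusters together had 16.2 MKN28 peaks per Mb, 0.552 times the rest (0.460 to 0.658). Without the 19p12 cluster, which is the longest, the ratio was 0.847 and its interval held 1 (0.705 to 1.01).

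In SNU216 the observed density was below that of the rest in all 4 clusters. They held 12 peaks in 19p12 (2.61 per Mb), 6 in 19q13.12 (3.75), 3 in 19q13.41 to 19q13.42 (1.88) and 3 in 19q13.43 (1.30). The density ratio to the rest was 0.377 in 19p12 (0.193 to 0.668), 0.271 in 19q13.41 to 19q13.42 (0.0556 to 0.800) and 0.189 in 19q13.43 (0.0387 to 0.556). In 19q13.12 it was 0.542, with an interval that held 1 (0.197 to 1.19). Of 19 windows of 0.5 Mb within the clusters, 9 had no SNU216 peak, against 10 of 86 windows in the rest of the chromosome. In MKN28, 1 of the 19 windows was empty and none of the 86.

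Of the 4 clusters, 19q13.41 to 19q13.42 had the smallest part of its peaks from SNU216, with 67 MKN28 peaks and 3 SNU216 peaks. SNU216 peaks made up 4.29% of the peaks of both lists there (exact 95% interval 0.893 to 12.02), 10.5% over all 4 clusters (6.83 to 15.2) and 19.03% in the rest of chromosome 19 (17.2 to 21.02). The share in 19q13.43, 6.67% (1.40 to 18.3), was not distinct from that of 19q13.41 to 19q13.42. Without 19q13.41 to 19q13.42 the share was 13.2%, and its interval (8.37 to 19.5) held the share of the rest. The MKN28 list is longer, so the count was repeated with its 11540 highest-scoring peaks, as many as SNU216 has. The cluster then held 35 MKN28 and 3 SNU216 peaks, the other clusters together 31 and 21, and the rest of the chromosome 393 and 310. The SNU216 share was 7.89% in that cluster (1.66 to 21.4), 40.4% in the other clusters (27.01 to 54.9) and 44.1% in the rest (40.4 to 47.9).

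SNU216 peaks were present on both sides of the 19q13.41 to 19q13.42 cluster. The 1 Mb before it held 10 SNU216 and 26 MKN28 peaks, and the 1 Mb after it held 16 and 35. Inside, the windows from 52.4, 52.9 and 53.4 Mb, each 0.5 Mb long, held 17, 28 and 19 MKN28 peaks and 0, 1 and 2 SNU216 peaks. The fullest of these, with 28 MKN28 peaks, was matched or exceeded by 5 of the 86 windows in the rest of chromosome 19. SNU216 had no peak over the first 794 kb of the cluster.

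Over all 4 clusters, the 100 kb just inside the boundaries held 22 MKN28 and 2 SNU216 peaks, and the 100 kb just outside held 25 and 10. Of those 10 SNU216 peaks, 4 lay before the start of 19q13.41 to 19q13.42. The end of 19p12 meets the centromere bands and had no peak of either list on either side. A strong MKN28 peak with a score of 2766 (chromosome 19, 36673352 to 36674687) lay 25.98 kb before the start of the 19q13.12 cluster and is not a member. The nearest MKN28 member inside that boundary scored 178 (36701427 to 36701904).

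The scale of the score that the authors' peak caller gave each peak is not stated, and whether it is common to both lists is unknown, so scores were compared within a list. In MKN28 the median score was 96.5 in the clusters (interval 88.2 to 119) and 104 in the rest (98.2 to 112), a ratio of 0.929 that did not stand apart from 1 (0.849 to 1.14). Of the 205 members, 98 scored 100 or more (47.8%, 40.8 to 54.9), against 49.9% of the whole list. In SNU216 the median was 64.04 in the clusters (55.7 to 94.5) and 94.7 in the rest (86.3 to 106), a ratio of 0.676 (0.588 to 0.997). Of the 24 members, 6 reached 100 (interval 9.77 to 46.7%), against 42.2% of the SNU216 list. This SNU216 ratio lay between 0.658 and 0.778 under 11 alternatives, and in 6 of them its interval held 1.

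MKN28 scores set 19q13.41 to 19q13.42 apart from 19p12, while the intervals of the other clusters shared values with both. The median was 174 at 19q13.41 to 19q13.42 (117 to 226), above the interval of the rest, and 76.2 in 19p12 (68.5 to 98.04), below the median of the rest. It was 85.9 in 19q13.12 (61.5 to 178) and 97.8 in 19q13.43 (85.3 to 130). The 19q13.12 cluster had few peaks, some of them strong. Its upper quartile was 416, and 7 of its 28 peaks (interval 10.7 to 44.9%) were in the highest-scoring 10% of the list. So were 4 of 68 in 19p12, 12 of 67 in 19q13.41 to 19q13.42 and 4 of 42 in 19q13.43. In the rest of chromosome 19 it was 154 of 1319 (11.7%, 9.99 to 13.5). That share lay within the interval of 19q13.12, so an excess of strong peaks there was not shown. In SNU216, 1 of the 24 members was in the highest-scoring 10% of its list (interval 0.105 to 21.1%), against 13.2% in the rest.

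The 5 strongest MKN28 members all lacked an SNU216 peak, as did most of the MKN28 list, of which 17.1% overlapped one. The first scored 2257 and was narrow, at 612 bp (chromosome 19, 52479025 to 52479636, 19q13.41). Both of the next were in 19q13.12, at 38188978 to 38190746 with a score of 1816 and a width of 1769 bp, and at 36883439 to 36884909 with a score of 1700 and a width of 1471 bp. The fourth was in 19p12 (21299785 to 21301128, score 1371), and the fifth in 19q13.41 (52918561 to 52919638, score 1320). The strongest MKN28 peak of 19q13.43 without a counterpart scored 1193 (57396516 to 57397842). Of 8 MKN28 members that scored at least 1000, 1 overlapped an SNU216 peak (12.5%, 0.316 to 52.7), against 18 of 24 in the rest of chromosome 19 (interval 53.3 to 90.2%). Of 20 that scored at least 500, 3 did (15.0%, 3.21 to 37.9), against 61 of 117 (52.1%, 42.7 to 61.5). The intervals at 1000 and above, from 8 and 24 peaks, nearly met.

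**Figure D2:**
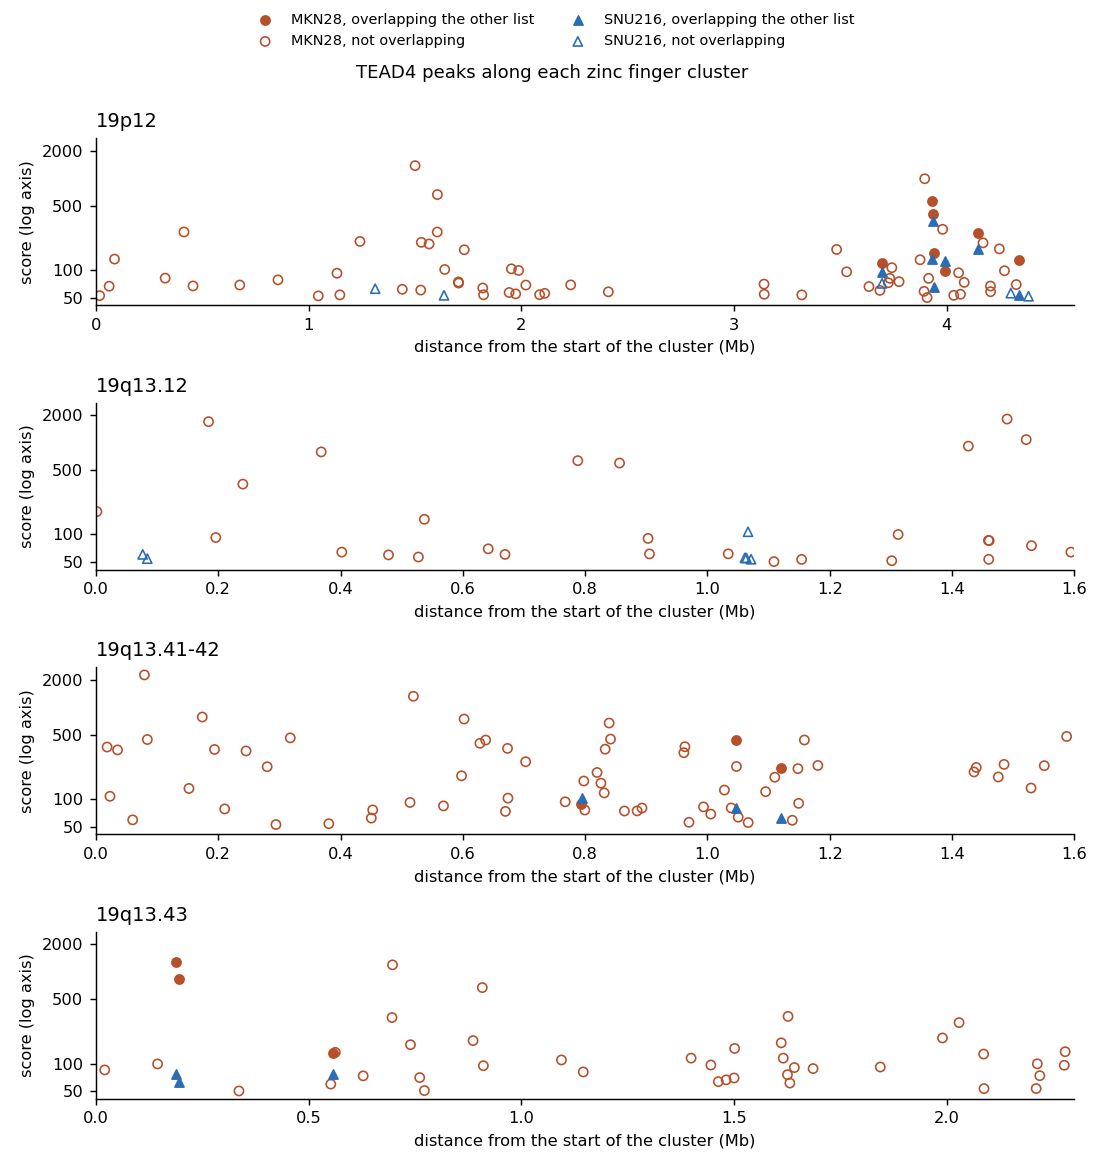
Score (log axis) of every TEAD4 peak in the 4 zinc finger clusters against its distance from the start of the cluster in Mb, for MKN28 (circles) and SNU216 (triangles); filled symbols overlap a peak of the other list by at least 1 bp. The SNU216 peaks of 19p12 gather near 4 Mb, no symbol is filled in 19q13.12, and 19q13.41 to 19q13.42 holds 67 MKN28 and 3 SNU216 peaks.

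Few TEAD4 sites in the clusters were called in both lines. Of the 205 MKN28 members, 13 overlapped an SNU216 peak (6.34%, 3.42 to 10.6), against 17.1% of the whole MKN28 list and 17.6% (15.6 to 19.8) in the rest of chromosome 19. Of the 24 SNU216 members, 13 overlapped an MKN28 peak (54.2%, 32.8 to 74.4), against 59.3% of the whole SNU216 list and 76.8% (71.7 to 81.4) in the rest of the chromosome. The SNU216 value was thus close to its list-wide share, within a wide interval. No more than 24 SNU216 peaks were available there for the 205 MKN28 peaks to overlap. The 13 pairs were made up of 7 in 19p12, 3 in 19q13.41 to 19q13.42 and 3 in 19q13.43.

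The low MKN28 overlap was also seen among strong peaks. With a score of 400 and above, 5 of 29 cluster peaks overlapped (17.2%, 5.85 to 35.8), against 80 of 165 in the rest of the chromosome (48.5%, 40.6 to 56.4). With a score from 200 to 400, 2 of 27 overlapped (7.41%, 0.910 to 24.3), against 61 of 172 (35.5%, 28.3 to 43.1). From 100 to 200 the shares were 9.52% (2.66 to 22.6) of 42 and 16.0% (12.3 to 20.3) of 350, whose intervals share values. Below 100 they were 1.87% (0.227 to 6.59) of 107 and 5.54% (3.89 to 7.62) of 632, and these also share values.

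**Figure D3:**
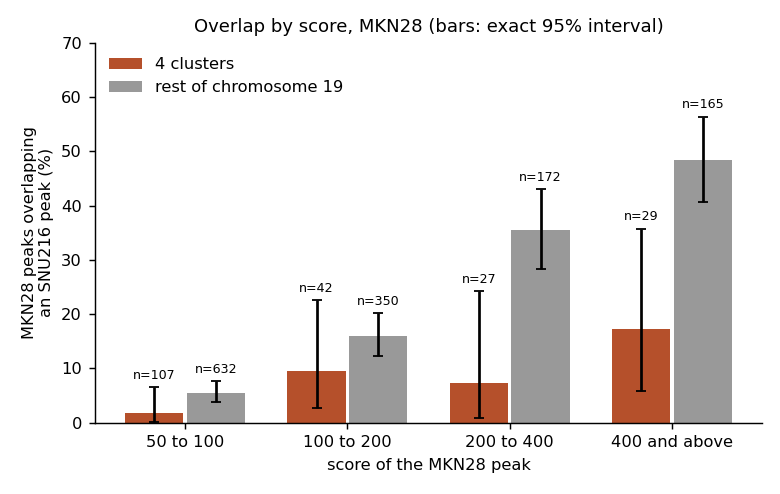
Percent of MKN28 peaks that overlap an SNU216 peak, in 4 groups by score, for the zinc finger clusters and the rest of chromosome 19; error bars are exact 95% intervals and n is the number of MKN28 peaks. At scores of 400 and above the clusters reach 17.2% and the rest 48.5%.

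The sites common to both lines in 19p12 lay in 1 Mb near its centromere end. The stretch from 23.3 to 24.3 Mb held 30 of the 68 MKN28 peaks and 10 of the 12 SNU216 peaks of that cluster. All 7 overlaps of the cluster were in it. The stretch was chosen after these values were seen, 17.1% of the MKN28 list overlapped an SNU216 peak, and no more than 2 SNU216 peaks lay elsewhere in the cluster for its other 38 MKN28 peaks to overlap. The strongest SNU216 member of all scored 344 (chromosome 19, 23732939 to 23733412) and its MKN28 partner 406. Beside it, the SNU216 peak at 23732214 to 23732580 scored 133 and its MKN28 partner, the strongest overlapping MKN28 peak of the cluster (23732013 to 23732677), scored 566. Another SNU216 peak nearby (23737314 to 23737615) scored 65.6, against 155 in MKN28. These are close neighbours and not independent sites.

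The cluster held 4 further shared sites. The peak at 23945604 to 23946049 scored 171 in SNU216 and 253 in MKN28. The one at 23793312 to 23793733 scored 124 and 96.5, 1 of 2 pairs among the 13 with the higher number in SNU216. The remaining 2 scored 94.5 and 119 (from 23493492) and 52.9 and 128 (from 24140518). The strongest SNU216 peak of the cluster without a partner scored 71.3 (23495315 to 23495708), and its midpoint lay 1.68 kb from that of the nearest MKN28 peak. Over 2057 kb of 19p12, between midpoints at 21436367 and 23493736, SNU216 had no peak. Neither list had a peak over 732 kb, from 22208972 to 22940764.

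In 19q13.12 no site was called in both lines, with 0 of 28 MKN28 peaks (exact interval 0 to 12.3%) and 0 of 6 SNU216 peaks (0 to 45.9%) overlapping. The shares were 17.1% and 59.3% in the whole lists and 17.6% and 76.8% in the rest of chromosome 19. The 6 SNU216 peaks were 27.3 to 82.4 kb from the nearest MKN28 peak. They formed 2 groups, a pair with scores of 60.7 and 54.5 (from 36776190 and 36783635) and 4 peaks within 11.0 kb (37760676 to 37771629) with scores of 55.7, 55.3, 107 and 53.7. Peaks of a group are close neighbours and not independent sites, so the interval for 0 of 6 is too narrow. All 6 SNU216 peaks were wide for their score. Their widths of 616 to 1025 bp were 1.82 to 3.26 times that of the typical SNU216 peak of similar score (median 2.37). The median was 0.984 for the rest of the chromosome, 0.964 in 19p12, 0.837 in 19q13.41 to 19q13.42 and 1.17 in 19q13.43. Such a width was not confined to 19q13.12, as the SNU216 peak from 57256263 in 19q13.43 reached 1.87. The 6 widths come from 2 groups of neighbours and are not independent either. The MKN28 peaks of 19q13.12 had a median relative width of 0.971 (0.877 to 1.15).

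At 19q13.41 to 19q13.42 all 3 SNU216 peaks overlapped an MKN28 peak. The strongest SNU216 peak (53193862 to 53194226) scored 102 and its partner 88.6. The strongest overlapping MKN28 peak (53446040 to 53446557) scored 442 and its SNU216 partner 79.3, and the last pair scored 220 in MKN28 and 62.1 in SNU216. The 3 overlapping MKN28 peaks were 4.48% of the 67 (0.933 to 12.5), against 17.1% of the MKN28 list, most of which likewise had no counterpart.

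At 19q13.43 the SNU216 peaks were 3 as well, and all overlapped. The strongest overlapping MKN28 member of all 4 clusters was here (56888837 to 56889402), with a score of 1283, while its SNU216 partner (56888862 to 56889283) scored 76.6. The neighbouring pair (MKN28 from 56895147) scored 833 and 62.5, and the last (from 57256117) scored 130 and 76.1. SNU216 had no peak from 57256614 to the end of the cluster, 1743 kb, where MKN28 peaks continued.

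**Figure D4:**
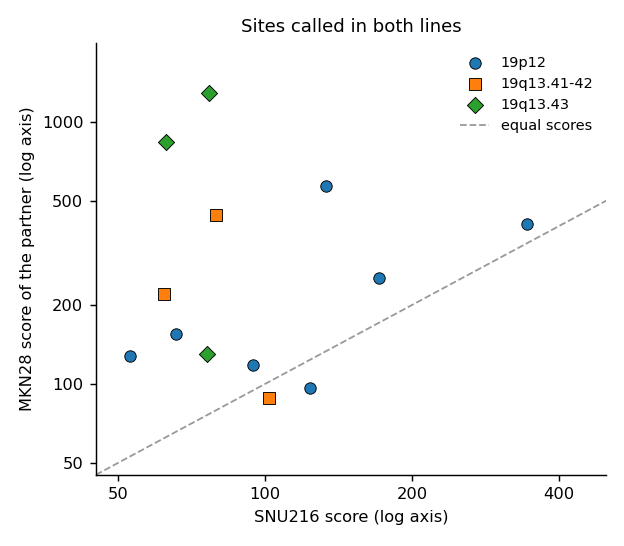
Scores of the 13 sites called in both lines, SNU216 on the horizontal and MKN28 on the vertical axis (both log), with the cluster given by the symbol; the dashed line marks equal scores. Of the pairs, 11 lie above the line and 2 below it, and the pair of 19q13.43 with the highest MKN28 score (1283) has an SNU216 score of 76.6.

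Over the 13 pairs the MKN28 scores ran from 88.6 to 1283 with a median of 220, and the SNU216 scores from 52.9 to 344 with a median of 79.3. These values are set side by side as a description only, since a common scale is not known, and the line of equal scores is a visual guide. The 192 MKN28 members without a counterpart had a median score of 93.2, and the 11 SNU216 members without one had a median of 55.7 (51.7 to 107, lowest and highest). Of those 11, 1 had its midpoint within 2 kb of an MKN28 midpoint.

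Peak width in the MKN28 clusters was near that of the rest, with medians of 511 and 521 bp. A width of at least 1000 bp was reached by 12 of the 205 MKN28 members (5.85%, 3.06 to 10.002) and 4.70% of the rest (3.62 to 5.99). Of these 12 wide members 2 overlapped an SNU216 peak, against 28 of 62 in the rest and 579 of 1597 in the whole MKN28 list. No interval was computed for these shares, and 12 peaks are too few to set the clusters apart. Neighbouring MKN28 members were 34.2 kb apart in the median in 19p12, 45.2 kb in 19q13.12, 21.7 kb in 19q13.43 and 16.5 kb in 19q13.41 to 19q13.42.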

How the data were processed

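TEAD4 ChIP-seq libraries of MKN28 and SNU216 (1 each) were analysed; the input libraries were used only through the authors' peak calls. CASAVA 1.8, Bowtie2 2.0.0, MACS and the build hg19 are listed in the submitters' processing notes. Settings and read depth: not given in the sources used here. Each peak's deposited score comes from the authors' peak caller; its scale is not stated, and the lowest value was 50.0 in both lists. Positions were converted to 1-based coordinates.

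Members had a midpoint in the 4 intervals. The intervals, comparisons and alternatives were chosen with earlier results of these data known. The rest of chromosome 19 left out 11 MKN28 peaks and 1 SNU216 peak in the centromere bands (24.4 to 28.6 Mb, table of circlize 0.4.16). Overlap meant at least 1 shared bp. Densities carry exact Poisson intervals, density ratios conditional binomial intervals, shares exact Clopper-Pearson intervals and medians order-statistic intervals, all at 95%. The interval of a score ratio covers the cluster median only. Relative width is a peak's width over the median of peaks of like score in its list (50 groups by score rank). Named peaks were the strongest overlapping and the strongest other peak of each cluster and list, and the 5 strongest members of each list. Other peaks, those of 19q13.12 in SNU216, the remaining pairs and the 19p12 stretch, were chosen after their values were seen. The code was tested on simulated data: with a density ratio of 0.5 planted among 1330 peaks outside the clusters, 40 draws gave a mean of 0.500, and 37 intervals held the planted value. The software was scipy 1.17.1, pandas 2.3.3, numpy 2.4.6 and Python 3.11.15.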

Additional observations from a re-analysis of the deposited data

Results flagged for a closer look

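The cluster at 19q13.41 to 19q13.42 stood out because the lines lay on opposite sides of the rest of chromosome 19. Its peaks per Mb were 1.42 times the rest in MKN28 and 0.271 times in SNU216. The difference between the lines was not tested, as each had 1 library.

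All 4 clusters together lay on opposite sides of the genome-wide level, at 1.52 times in MKN28 and 0.609 times in SNU216, and this difference was not tested either. Without 19q13.41 to 19q13.42, a set chosen after seeing the data, the values were 1.22 (1.02 to 1.44) and 0.633 (0.392 to 0.968).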

How the results depend on the processing

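Of 77 recomputed values, 66 stayed within the interval of the reported value, 10 moved past it and 1 changed direction. A change of direction was counted only where the interval of the reported ratio excluded 1. The MKN28 score ratio, 0.929 with an interval that held 1, was therefore not counted. It was 1.16 with scores of 100 or more, 1.04 with an MKN28 list of equal length and 1.10 without 19p12. With the genome outside the clusters in place of the rest of chromosome 19, a setting added after seeing the data, the density ratio was 1.52 in MKN28, past 1, and 0.609 in SNU216, since that level is lower than the one of chromosome 19. The density ratio of clusters to rest was below 1 under the other 11 alternatives in both lists, from 0.552 to 0.847 in MKN28 and from 0.180 to 0.459 in SNU216. In MKN28 it was 0.847 without the 19p12 cluster and 0.552 without 19q13.41 to 19q13.42. When both lists were limited to scores of 100 or more, the SNU216 density ratio was 0.180, the MKN28 score ratio 1.16, the MKN28 overlap 3.06% and the SNU216 share 5.77%. With an MKN28 list of equal length, the MKN28 overlap was 10.6% (39.2% in the rest of chromosome 19). The SNU216 overlap was then 29.2% and the SNU216 share 26.7% (44.1% in the rest). For the overlap and share under the score limit, and the SNU216 overlap at equal length, no value of the rest was computed. Those values alone do not set the clusters apart. Shorter lists leave fewer peaks to overlap by construction; the cause of the other moves was not tested. No replicate could be left out. No paired analysis was possible because there is 1 library per group. Unknown depth limits every statement on sites called in 1 list.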
